A study of Mus musculus with 12 samples.

Results

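Early growth response (EGR) transcription factors and the NGFI-A binding (NAB) proteins that hold them back were followed at the mRNA level in mouse cytotoxic T lymphocytes (CTL). The members were the 5 rows of the deposited expression table whose symbol was Egr1, Egr2, Egr3, Nab1 or Nab2, out of 11022 genes. All 5 were present, and none was left out by a filter on low values. The 12 samples were P14 CTL, CD8 T cells that carry a transgenic T cell receptor (TCR) for the gp33-41 peptide, from female mice aged 9 to 13 weeks. Cells were activated for 48 h and then grown for 5 days in interleukin 2 (IL-2) at 20 ng/mL, which was also present during the experiment in every group. Each group held 3 biological replicates: unstimulated CTL, CTL given peptide at 100 ng/mL for 4 h (TCR), CTL given peptide with 10 µM IC87114, an inhibitor of PI3K p110δ (TCR + PI3Kdi), and CTL given peptide with 2 µM PD184252, an inhibitor of MEK1/2 (TCR + MEKi). The cultures came from 3 mice. No group received an inhibitor without peptide, and only a single time point was taken. p-values measure the spread between these replicates.

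EGR proteins are zinc finger transcription factors of the immediate-early class, whose genes are switched on within minutes of receptor engagement without the need for new protein. In T cells the TCR reaches these genes through the RAS, MEK and ERK kinases, which act on serum response factor (SRF) and its partners at CArG boxes, and through calcineurin and the NFAT factors. EGR1 is a general activator of growth and cytokine genes, whereas EGR2 and EGR3 are best known in T cells for restraining activation and promoting anergy. NAB1 and NAB2 bind EGR proteins and repress their target genes, and Nab2 is itself an EGR target, so the pair form a feedback loop.

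The table gave FPKM, read fragments scaled to exon length and library size, in which levels of different genes can be set side by side. FPKM summed over all genes ranged from 470420 to 495945 in unstimulated samples and from 524343 to 666922 in the stimulated samples. As deposited, the median log2 difference of all genes between TCR and unstimulated CTL was -0.01. When samples were brought to equal FPKM sums, which is the TPM scale, it was -0.41, and it was 0.19 and 0.26 for PI3K and MEK inhibition against TCR. Of the markers listed for CTL, 9 of 9 were in the table, among them Cd8a at 212.73 to 430.34 FPKM, while 0 of 7 B cell and 0 of 8 myeloid markers were listed. Of 5 markers for CD4 T and NK cells, Ncr1 and Foxp3 were not listed, and the summed level of the other 3 was 6.16 to 8.06 FPKM in unstimulated samples, 115 to 117 with TCR, 51.1 to 55.2 with PI3Kdi and 39.0 to 44.4 with MEKi. Cd40lg, an activation gene, made up most of the stimulated sums. Klrb1c was the highest of the 3 in unstimulated CTL, at a mean of 5.39 FPKM. It went the other way, to 1.79 with TCR, 2.27 with PI3Kdi and 1.59 with MEKi. Cd4 itself was at 0.28 to 3.65 FPKM in every sample. Its means were 0.773 in unstimulated CTL, 2.69 with TCR, 2.94 with PI3Kdi and 0.45 with MEKi. The part of these cells in the results was not tested. In whole cultures, fewer cells expressing a gene and less mRNA per cell cannot be told apart.

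A gene was called changed when its Benjamini-Hochberg adjusted p over all 11022 genes, from limma on log2(FPKM + 0.1), was under 0.05 and its change was more than 2-fold. After 4 h of peptide, 4 of the 5 genes were called higher and none lower, against 8.87% of all genes called higher. On the TPM scale 3 were, without Egr1, where 647 of 11022 genes were called higher. The median log2 difference of the members was 1.53. Egr2 rose 117-fold and Egr3 34.9-fold from levels below 4 FPKM, Nab2 rose 2.91-fold and Egr1 2.35-fold from levels above 19 FPKM, and Nab1 did not pass the test. With the MEK inhibitor 3 of 5 were called lower than TCR, against 2.51% of all genes called lower. With the PI3K inhibitor 0 of 5 were called, where 1.88% of all genes were called in either direction. Of those 5, limma gave 4 an unadjusted p and 3 an adjusted p under 0.05, each with a fall of less than 2-fold. Over all genes, 12.8% were lower at an adjusted p under 0.05 whatever their fold. With replicate number as a block in limma, Nab2 passed as well (adjusted p = 0.0269) and Nab1 did not (adjusted p = 0.14).

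**Figure D1:**
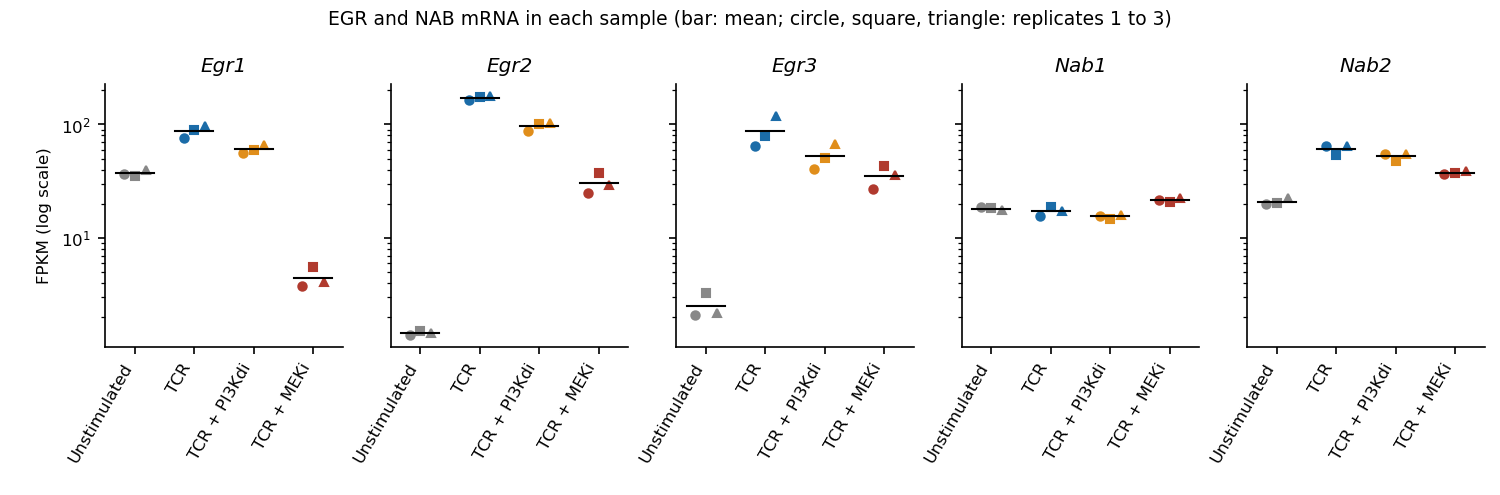
FPKM on a log axis for each gene (panels) and group (x axis), with 1 symbol a sample and a bar at the mean of 3. Egr2 and Egr3 start below 4 FPKM in unstimulated CTL and exceed 64 with TCR, Egr1 falls below its unstimulated level only with MEKi, and Nab1 stays between 14.7 and 22.5 FPKM throughout.

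Egr2 (Entrez gene 13654, chromosome 10, 67534469 to 67542188 on GRCm38) encodes the EGR factor tied to anergy and to T cell self-tolerance. Its level was 1.41, 1.52 and 1.47 FPKM in unstimulated CTL and 163, 175 and 178 FPKM with TCR. With PI3Kdi it was 86.9, 102 and 103 FPKM, and with MEKi 25.0, 37.8 and 29.4 FPKM. The 4 groups lay fully apart, in the order TCR, PI3Kdi, MEKi, unstimulated. The group means were 1.47 ± 0.0551, 172 ± 7.88, 97.2 ± 8.95 and 30.7 ± 6.47 FPKM (SD, n = 3) for unstimulated, TCR, PI3Kdi and MEKi. TCR raised Egr2 117-fold (log2 difference 6.78, SE 0.11, adjusted p = 5.89e-16 by limma). The PI3K inhibitor left 56.6% of the TCR mean (log2 difference -0.82, SE 0.11, adjusted p = 0.000127), a fall in all 3 same-numbered samples that did not reach 2-fold. On the TPM scale the log2 difference between PI3Kdi and TCR was -0.64 (adjusted p = 0.000711 by limma). The MEK inhibitor lowered Egr2 5.59-fold (log2 difference -2.50, SE 0.11, adjusted p = 1.63e-09). Even so, the MEKi level was 20.9-fold above that of unstimulated CTL (log2 difference 4.28, adjusted p = 2.24e-13).

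The DNA just before the Egr2 start site is shown because it carries the kind of elements through which ERK and SRF act on EGR genes. The stretch lies at chr10:67537719-67537868 on the plus strand of GRCm38 (RefSeq promoter window, GRCm38.p6) and ends at the base before the first exon of the main GENCODE transcript. Longer annotated transcripts start further upstream, but no GENCODE exon falls in it. Capitals mark a CArG box and 2 copies of the CRE half-site TGACG, the second of which reads CGTCA because it lies on the opposite strand.
Egr2: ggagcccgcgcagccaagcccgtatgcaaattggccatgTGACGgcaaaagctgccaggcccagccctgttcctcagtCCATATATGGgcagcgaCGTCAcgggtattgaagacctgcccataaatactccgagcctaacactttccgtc
The CArG box lies 72 to 63 bases before the start. Egr2 had other RefSeq windows, for other start sites. That before 67537566 held a different CArG box, CCTTTTTTGG, and no TGACG, and that before 67535499 held neither. A match to the CArG box was found in 1.47% of the 32851 RefSeq windows of 250 bases searched on both strands, and TGACG in 17.8%. Among the 10616 windows of genes in the table these shares were 1.06% and 27.6%. These matches describe the sequence and no binding was measured.

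Egr3 (Entrez gene 13655, chromosome 14, 70077317 to 70082613) encodes a close relative of EGR2 with overlapping functions in T cells. It measured 2.08, 3.25 and 2.18 FPKM in unstimulated CTL and 64.1, 79.1 and 119 FPKM with TCR. The values with PI3Kdi were 40.3, 50.5 and 67.1 FPKM, and with MEKi 26.8, 43.3 and 35.6 FPKM. Unstimulated samples lay far below the rest, while the PI3Kdi range overlapped both the TCR and the MEKi ranges. Egr3 was the most variable member within groups, with a coefficient of variation of 23.5% to 32.3%. TCR raised its mean 34.9-fold, from 2.50 ± 0.649 to 87.3 ± 28.2 FPKM (log2 difference 5.05, SE 0.24, adjusted p = 7.65e-11). The MEK inhibitor lowered it 2.48-fold, to 35.2 ± 8.28 FPKM (log2 difference -1.29, SE 0.24, adjusted p = 0.000709), but against a 2-fold limit built into the test (limma treat) the adjusted p was 1.

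With the PI3K inhibitor Egr3 was at 60.3% of the TCR mean, 52.6 ± 13.5 FPKM, and between 0.565 and 0.638 of the TCR value in the 3 same-numbered samples. The log2 difference was -0.71 (SE 0.24, adjusted p = 0.0386), and with replicate number as a block the SE was 0.16 and the adjusted p 0.00587. Without the block the adjusted p rose to 0.0883 on the TPM scale, 0.0809 after quantile normalisation and 0.0847 without the variance trend. Leaving out TCR replicate 2 or 3 gave 0.0573 and 0.167, and leaving out PI3Kdi replicate 1 or 2 gave 0.130 and 0.0930. Egr3 did not differ between the inhibitors at this threshold (MEKi minus PI3Kdi -0.57 in log2, SE 0.24, adjusted p = 0.0829), although with replicate number as a block the adjusted p was 0.0169.

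Egr1 (Entrez gene 13653, chromosome 18, 34861207 to 34864956) encodes the founding member of the family. Unlike Egr2 and Egr3 it was abundant before peptide was added, at 36.4, 35.4 and 39.8 FPKM. TCR samples held 76.3, 89.2 and 97.0 FPKM and PI3Kdi samples 55.9, 60.1 and 66.4 FPKM. MEKi samples held 3.76, 5.51 and 4.13 FPKM. The groups did not overlap, and MEKi was the only group below the unstimulated range. TCR raised Egr1 2.35-fold, from 37.2 ± 2.29 to 87.5 ± 10.5 FPKM (log2 difference 1.23, SE 0.12, adjusted p = 3.41e-07). On the TPM scale the log2 difference was 0.81, under 2-fold (adjusted p = 1.82e-05), and against the built-in 2-fold limit the adjusted p was 0.299.

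Egr1 showed the largest response to MEK inhibition among the members. Its mean of 4.47 ± 0.922 FPKM was 19.6-fold below TCR (log2 difference -4.27, SE 0.12, adjusted p = 2.14e-11) and 8.33-fold below unstimulated CTL (log2 difference -3.05, SE 0.12, adjusted p = 1.93e-11). Among the 11022 genes it thereby moved from the 79.8 to 81.4 percentile in unstimulated samples to the 27.1 to 34.7 percentile. With the PI3K inhibitor it was at 69.5% of the TCR mean, 60.8 ± 5.32 FPKM (log2 difference -0.52, SE 0.12, adjusted p = 0.00559), still 1.64-fold above unstimulated CTL (adjusted p = 0.000127). On the TPM scale the log2 difference between PI3Kdi and TCR was -0.34 (adjusted p = 0.0415 by limma).

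Nab2 (Entrez gene 17937, chromosome 10, 127660918 to 127666703) encodes the inducible co-repressor of EGR proteins. It was at 19.9, 20.3 and 22.6 FPKM in unstimulated CTL and at 64.4, 53.3 and 64.9 FPKM with TCR. PI3Kdi samples held 55.0, 47.6 and 54.7 FPKM and MEKi samples 37.0, 37.5 and 38.7 FPKM. The PI3Kdi range overlapped that of TCR, and the MEKi range lay apart between those of unstimulated and PI3Kdi samples. TCR raised Nab2 2.91-fold, from 20.9 ± 1.49 to 60.9 ± 6.54 FPKM (log2 difference 1.53, SE 0.08, adjusted p = 3.25e-10). The MEK inhibitor lowered it to 62.0% of TCR, 37.7 ± 0.878 FPKM (log2 difference -0.68, SE 0.08, adjusted p = 1.75e-05), which is less than 2-fold. With the PI3K inhibitor it was at 86.1% of TCR (log2 difference -0.21, SE 0.08, adjusted p = 0.0684), with replicate number as a block the adjusted p was 0.0269, and on the TPM scale the log2 difference was -0.03 (adjusted p = 0.756).

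Nab1 (Entrez gene 17936, chromosome 1, 52455849 to 52500712) encodes the related co-repressor that most tissues express without stimulation. Its values were 18.6, 18.3 and 17.5 FPKM in unstimulated CTL and 15.7, 18.9 and 17.3 FPKM with TCR. They were 15.6, 14.7 and 16.1 FPKM with PI3Kdi and 21.5, 20.8 and 22.5 FPKM with MEKi. Unstimulated and TCR samples overlapped (log2 difference -0.07, SE 0.07, adjusted p = 0.382), but on the TPM scale the log2 difference was -0.48 (adjusted p = 0.000128). MEKi samples were the highest, 1.25-fold above TCR (log2 difference 0.32, SE 0.07, adjusted p = 0.0029) and 1.40-fold above PI3Kdi (log2 difference 0.48, adjusted p = 0.000168). PI3Kdi and TCR samples overlapped (log2 difference -0.15, adjusted p = 0.133), and on the TPM scale the sign turned (0.03, adjusted p = 0.830).

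Stretches before the start sites of Nab2 and Nab1 are shown because they hold the letters that EGR zinc fingers are known to prefer. That of Nab2 lies at chr10:127666715-127666744 and that of Nab1 at chr1:52500536-52500565, both read on the minus strand (RefSeq, GRCm38.p6). Capitals mark the core GCGTGGG, which reads CCCACGC in Nab2 because it lies on the opposite strand, and the longer site GCGTGGGCG in Nab1, which contains the core.
Nab2: cccggttctgCCCACGCcctcctcccgcca
Nab1: tcggccgcGCGTGGGCGggagccggagcgg
The Nab1 stretch falls inside the first exon of a Nab1 transcript in GENCODE that starts further upstream. Searched on both strands, GCGTGGG was in 4.3% of the 32851 windows and GCGTGGGCG in 0.536%, and among windows of genes in the table they were in 7.26% and 1.09%. The whole window of 250 bases held 2 copies of the longer site for Nab1 and 1 copy of the core for Nab2. These matches describe the letters only. For Nab2, 27.9% of its 2940 transcript stretches of 100 bases also occur, on the opposite strand, in the antisense gene Gm16229, which had no row in the table, and 1.77% occur in Nemp1. By exon bases on the opposite strand, Nab2 shares 1050 of its 2941 with Gm16229, 151 with Nemp1 and 40 with Stat6. No such stretch of Egr1, Egr2, Egr3 or Nab1 was shared with another gene. Library preparation kept the strand, but whether counting used it is not stated.

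**Figure D2:**
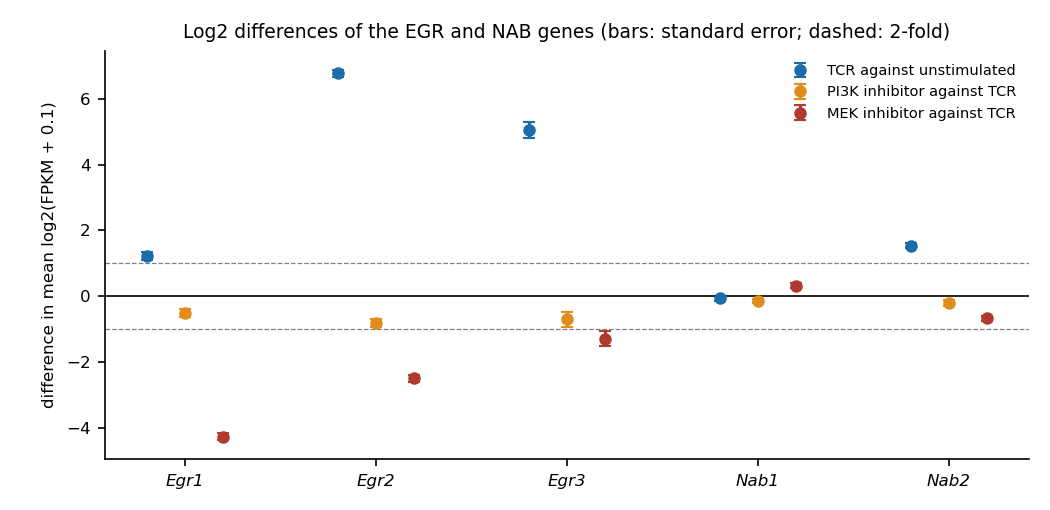
Difference in mean log2(FPKM + 0.1) for each gene (x axis) in 3 comparisons, with bars for the standard error from limma and dashed lines at 2-fold. The MEK inhibitor points run from -4.27 for Egr1 through -2.50 and -1.29 for Egr2 and Egr3 to -0.68 for Nab2 and 0.32 for Nab1.

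The share of the TCR response that remained under each inhibitor was taken as the rise over the unstimulated mean relative to that of TCR. With the PI3K inhibitor 47.0% of the Egr1 rise, 56.2% of the Egr2 rise, 59.1% of the Egr3 rise and 78.9% of the Nab2 rise remained. Shares were also taken within each replicate number, as the rise over the unstimulated sample of that number. They ran from 46.0% to 48.7% for Egr1, 52.9% to 57.9% for Egr2, 55.7% to 62.3% for Egr3 and 75.8% to 82.8% for Nab2. Replicate numbers were not taken as pairing unstimulated with TCR or with PI3Kdi samples, so ranges within numbers are descriptions only. With the MEK inhibitor 17.2% of the Egr2 rise, 38.6% of the Egr3 rise and 42.1% of the Nab2 rise remained. Within replicate numbers these ran from 14.6% to 20.9% for Egr2, 28.7% to 52.8% for Egr3 and 38.0% to 52.1% for Nab2. The Egr3 and Nab2 ranges overlapped. No Egr1 rise remained, since its MEKi level lay below the unstimulated level. All these shares are on the deposited scale, where FPKM sums differed between groups. On the TPM scale the Nab2 log2 difference from unstimulated CTL was 1.09 with PI3Kdi and 1.12 with TCR. The same pairs of values were 0.48 and 0.81 for Egr1, 5.73 and 6.38 for Egr2, and 4.11 and 4.64 for Egr3. Both inhibitors are set against the same 3 TCR samples.

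Set directly against each other, MEKi was lower than PI3Kdi for Egr1 (13.6-fold, log2 difference -3.75, adjusted p = 1.36e-10) and for Egr2 (3.16-fold, log2 difference -1.67, adjusted p = 7.97e-08). These 2 of 5 genes were called lower, against 1.71% of all genes. Nab2 was also lower with MEKi, at 72.0% of PI3Kdi (log2 difference -0.47, adjusted p = 0.000523). Against unstimulated CTL, PI3Kdi left Egr2, Egr3 and Nab2 called higher (66.3-fold, 21.0-fold and 2.51-fold), against 7.16% of all genes called higher. MEKi left Egr2 and Egr3 called higher (20.9-fold and 14.1-fold), against 6.95% of all genes, and Egr1 called lower, against 6.46%. Nab2 with MEKi was 1.80-fold above unstimulated CTL (log2 difference 0.85, adjusted p = 3.83e-07).

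The make-up of EGR mRNA changed along with its amount. Summed FPKM of Egr1, Egr2 and Egr3 was 39.9, 40.1 and 43.4 in unstimulated CTL, 303, 343 and 394 with TCR, 183, 212 and 237 with PI3Kdi, and 55.6, 86.6 and 69.2 with MEKi. The 4 groups did not overlap. Egr1 made up 90.3% ± 1.92 (SD, n = 3) of the sum in unstimulated CTL and Egr2 only 3.57% ± 0.203. With TCR, Egr2 made up 49.9% ± 4.34, Egr1 25.3% ± 0.695 and Egr3 24.8% ± 4.75. In PI3Kdi samples Egr2 was 46.3% ± 2.39, Egr1 29.0% ± 1.34 and Egr3 24.7% ± 3.27, and only for Egr1 did the PI3Kdi and TCR shares not overlap. In MEKi samples Egr3 was 49.9% ± 1.65, Egr2 43.7% ± 1.26 and Egr1 6.37% ± 0.397. Thus the sum with MEKi was 70.4 ± 15.5 FPKM, above the 41.2 ± 1.95 FPKM of unstimulated CTL, yet Egr1 led in one and Egr3 with Egr2 in the other.

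**Figure D3:**
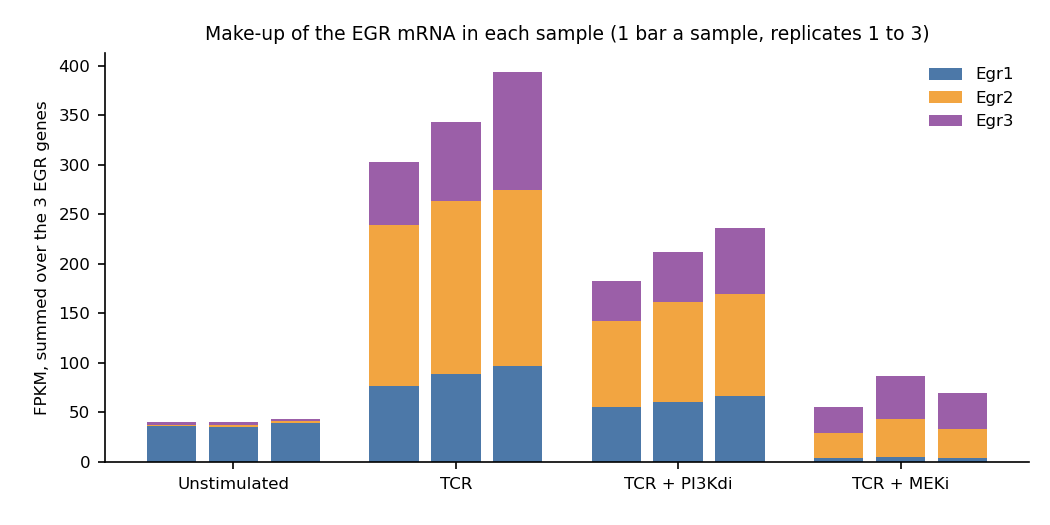
FPKM of Egr1, Egr2 and Egr3 stacked for each of the 12 samples, 3 bars a group. The bars are almost all Egr1 in unstimulated CTL, reach 303 to 394 FPKM with TCR with Egr2 as the largest share, and hold little Egr1 with MEKi.

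EGR factors relative to their co-repressor were compared within samples, where the scaling of a sample cancels. Summed EGR per Nab2 was 1.97 ± 0.0465 in unstimulated CTL, 5.73 ± 0.906 with TCR, 4.04 ± 0.617 with PI3Kdi and 1.87 ± 0.409 with MEKi. Nab2 per Nab1 was 1.16 ± 0.121, 3.56 ± 0.66, 3.38 ± 0.143 and 1.75 ± 0.0508 in the same order. The EGR to Nab2 ratio of MEKi samples ran from 1.5 to 2.31 and overlapped the 1.92 to 2.01 of unstimulated CTL.

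Whether the genes answered the inhibitors unequally was tested on 7 log2 ratios of gene pairs over the 9 stimulated samples, by an exact permutation test of the 3 groups with adjustment over the 7 pairs (smallest possible p = 0.00357). The ratio of Egr1 to Egr2 was -1.09, -0.97 and -0.87 with TCR, -0.64, -0.76 and -0.63 with PI3Kdi and -2.70, -2.75 and -2.80 with MEKi (exact p = 0.00357, adjusted p = 0.0125). The 3 groups did not overlap, and the ratio was lowest with MEKi and highest with PI3Kdi. Egr2 to Nab2 gave 1.34, 1.71 and 1.45 with TCR, 0.66, 1.09 and 0.91 with PI3Kdi and -0.56, 0.01 and -0.39 with MEKi (exact p = 0.00357, adjusted p = 0.0125). The ratio was lower in every PI3Kdi sample than in any TCR sample and lower again in every MEKi sample.

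Egr1 against Egr3 moved by -2.99 with MEKi and by 0.19 with PI3Kdi relative to TCR (exact p = 0.0143, adjusted p = 0.025), and Egr1 against Nab2 by -3.59 and -0.31 (exact p = 0.0107, adjusted p = 0.025). Egr2 against Egr3 moved by -1.21 with MEKi and -0.11 with PI3Kdi (exact p = 0.0214, adjusted p = 0.03). Nab2 against Nab1 moved by -1.01 and -0.06 (exact p = 0.0286, adjusted p = 0.0333). For Egr3 against Nab2 the shifts of -0.60 and -0.50 did not pass (exact p = 0.221, adjusted p = 0.221), with SDs of 0.34 to 0.45 within groups. With replicate number as a block, for which the smallest possible p is 0.0278, Egr2 against Egr3 (exact p = 0.0556, adjusted p = 0.0778) and Nab2 against Nab1 (exact p = 0.0833, adjusted p = 0.0833) no longer passed. The test asks whether any of the 3 groups differs, not which.

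**Figure D4:**
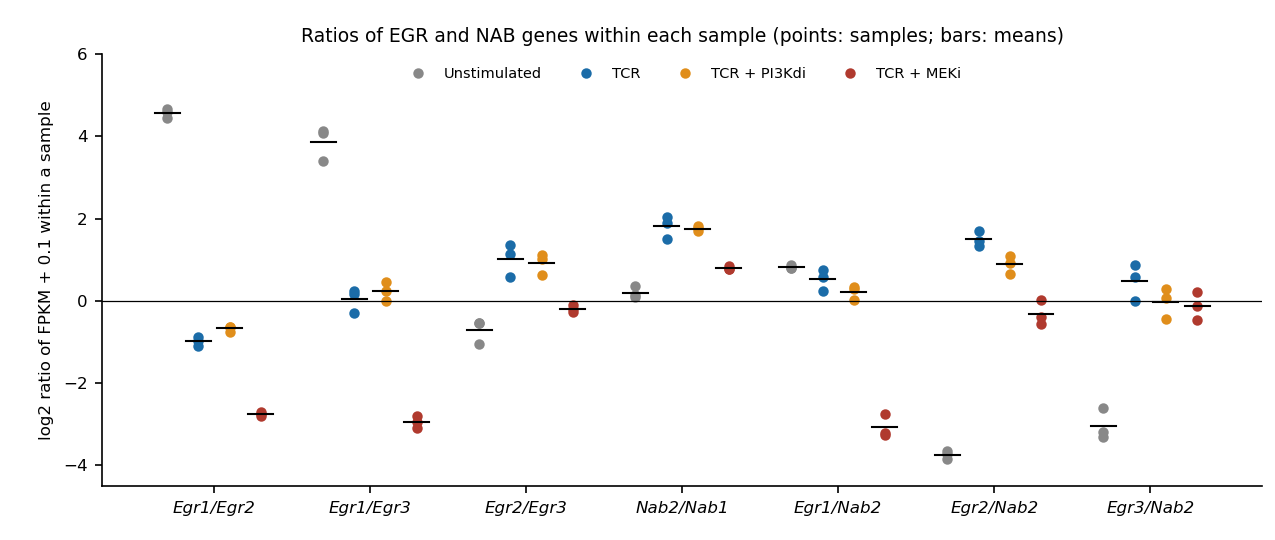
Log2 ratio of 2 genes within a sample for 7 pairs (x axis), with a point a sample, a bar at the mean of 3 and colours for the 4 groups. For the pairs with Egr1 the MEKi points lie at -2.70 or below, and for Egr3 to Nab2 the 3 stimulated groups overlap.

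Of 24 genes that feed ERK and SRF signals to EGR promoters, 0 were called higher and 2 lower with TCR, where 8.87% and 11.1% of all genes were. By limma 15 of them had an unadjusted p under 0.05, 6 higher and 9 lower. Over all 11022 genes, 7559 passed even at an adjusted p under 0.05 with TCR, 2818 with PI3Kdi and 4090 with MEKi. The median log2 difference of the 24 with TCR was -0.07 against -0.01 over all genes. Rasgrp1, the RAS activator that responds to diacylglycerol, fell from 57.0 ± 2.37 to 9.71 ± 0.415 FPKM (log2 difference -2.54, SE 0.08, adjusted p = 1.59e-12). Mapk3, which encodes ERK1, fell from 26.9 ± 0.778 to 12.6 ± 0.496 FPKM (log2 difference -1.09, adjusted p = 6.98e-08). With MEKi only Rasgrp1 of the 24 was called, where 0.98% of all genes were called higher. It was at 22.4 ± 1.04 FPKM, above its TCR level (log2 difference 1.20, adjusted p = 1.05e-07). With PI3Kdi 0 of 24 were called by limma, where 1.88% of all genes were, and 13 had an unadjusted p under 0.05. Of 9 calcineurin and NFAT genes, 1 was called lower with TCR as deposited and 6 on the TPM scale, where 11.1% of all genes were called lower as deposited and 2276 of 11022 genes on the TPM scale. The former was Nfatc2, which went from 30.6 ± 0.925 to 10.8 ± 1.38 FPKM (adjusted p = 4.67e-09). Of the 9, 0 were called with either inhibitor against TCR by limma, with 3 at an unadjusted p under 0.05 for PI3Kdi and 6 for MEKi. Over all genes 1.88% were called with PI3Kdi, and 2.51% were called lower and 0.98% higher with MEKi. The median of those 9 genes with TCR was -0.80.

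Other immediate-early genes gave a comparison for the EGR response. Of 26 listed, 15 were called higher and 0 lower with TCR, against 8.87% and 11.1% of all genes. The median log2 difference of the list was 1.20. The largest rises were in the nuclear receptor genes Nr4a1 (0.753 ± 0.0321 to 169 ± 27.6 FPKM), Nr4a2 (3.75 ± 0.0416 to 120.0 ± 15.4 FPKM) and Nr4a3 (9.99 ± 1.91 to 294 ± 33.0 FPKM). The Egr2 difference of 6.78 lay between those of Nr4a1 (7.62) and Nr4a2 (4.96). With PI3Kdi 0 of 26 were called by limma, where 1.88% of all genes were called, and the median was -0.31. An unadjusted p under 0.05 was found for 21 of the 26, where 2818 of 11022 genes passed at an adjusted p under 0.05. With MEKi 7 were called lower and 1 higher, against 2.51% and 0.98% of all genes, and the median was -0.30. The lowered genes included Fosb (2.42 ± 0.126 to 0.577 ± 0.0306 FPKM), Dusp2 (285 ± 22.5 to 88.4 ± 7.66 FPKM) and Dusp6 (86.0 ± 5.06 to 27.9 ± 5.39 FPKM), of which the last 2 encode phosphatases that switch off ERK. Dusp6 was at 87.9 ± 0.853 FPKM in unstimulated CTL, so like Egr1 it lay below its unstimulated level with MEKi. Klf2, a quiescence factor, was the gene called higher (1.10 ± 0.269 to 4.81 ± 0.356 FPKM, log2 difference 2.05, adjusted p = 3.08e-06).

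Of 23 genes known as EGR targets in T cells, a list that includes Nab2, 13 were called higher and 3 lower with TCR. Over all genes 8.87% were called higher and 11.1% lower. The median log2 difference of the list was 1.53. The chemokine gene Ccl1 rose from 0.563 ± 0.168 to 5588 ± 604 FPKM and Il2 from 0.0633 ± 0.11 to 705 ± 57.3 FPKM. Crtam, an adhesion receptor gene, rose from 4.14 ± 0.731 to 835 ± 16.8 FPKM. Genes of the list that fell were Id3, which encodes an inhibitor of E proteins (6.51 ± 1.22 to 0.71 ± 0.0693 FPKM), the cytokine signalling inhibitor Socs1 (79.5 ± 4.5 to 24.3 ± 3.13 FPKM) and the cell cycle inhibitor Cdkn1b (9.79 ± 0.891 to 4.1 ± 0.37 FPKM). With PI3Kdi 3 of 23 were called lower and 0 higher, against 1.38% of all genes called lower. They were Il2 (705 ± 57.3 to 87.2 ± 24.1 FPKM, adjusted p = 2.38e-05), Tnf (3252 ± 266 to 539 ± 96.4 FPKM, adjusted p = 4.92e-07) and Ccl1 (to 2698 ± 186 FPKM, adjusted p = 0.000229). With MEKi 6 of 23 were called lower and 0 higher, against 2.51% of all genes lower, led by Il2 (50.7 ± 17.1 FPKM), Tnf (409 ± 147 FPKM) and Nrn1 (4.66 ± 1.71 to 1.13 ± 0.285 FPKM). The median of the list was -0.21 with PI3Kdi and -0.49 with MEKi, against 0.02 and 0.01 over all genes. Many other factors act on these genes, and their dependence on EGR was not measured.

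NAB proteins repress through the NuRD chromatin remodelling complex. Of 13 subunit genes listed, 1 was called lower with TCR, Mta3 (42.2 ± 1.62 to 21.0 ± 2.03 FPKM, log2 difference -1.01, adjusted p = 1.02e-08), near the 11.1% of all genes. With a pseudocount of 1 none was called lower, where 718 of 11022 genes were. On the TPM scale 4 were, where 2276 of 11022 genes were. Of the 13, 0 were called with either inhibitor against TCR by limma. Over all genes 1.88% were called with PI3Kdi, and 2.51% were called lower and 0.98% higher with MEKi. An unadjusted p under 0.05 was found for 5 of the 13 with PI3Kdi and 8 with MEKi. At an adjusted p under 0.05, 2818 and 4090 of 11022 genes passed in these comparisons. The medians were -0.11 with TCR, -0.08 with PI3Kdi and 0.09 with MEKi.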

How the data were processed

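RNA from 12 CTL cultures was sequenced as stranded, paired-end mRNA libraries. The authors aligned reads to mm10 with STAR 2.4.2a, counted them per RefSeq gene with Subread 1.5.0, filtered low counts and deposited FPKM of 11022 genes, made with edgeR from TMM-normalised counts and summed non-overlapping exon length. Read totals are not in the table, so the depth is unknown and no counting intervals are given. Value columns without a sample numbered 0.

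log2(FPKM + 0.1) was fitted with limma 3.58.1 in R 4.3.3 (4 group means over 12 samples, eBayes with trend, no block), with Benjamini-Hochberg adjustment over all genes and 6 contrasts. The pseudocount of 0.1 understates changes of low genes. Genes were called at an adjusted p under 0.05 and over 2-fold. Gene pair ratios were tested by exact permutation (two-sided in effect) in Python 3.11.15. Both procedures were tested on simulated data. The members, gene lists, tests and alternatives were chosen with earlier results of these data known. Every member was named. For each list, up to 3 called genes that rose most and up to 3 that fell most were named in each of the comparisons of TCR with unstimulated and of each inhibitor with TCR. For each member, the 5 genes with the closest pattern were named (highest Pearson r, mean of at least 1 FPKM in a group). List symbols were matched directly or, for Hras1, Mkl1 and Mkl2, by synonym. Positions are from RefSeq on GRCm38 and overlaps from GENCODE M21. Promoter windows, 250 bases before the start, were found for 3 of the 5 members (Egr2, Nab1 and Nab2).

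Whether equal replicate numbers mark 1 mouse is not stated. Deviations of same-numbered samples from their group means correlated over 0.1 in 15 of 18 pairs (-0.062 to 0.451) and those of differently numbered samples in 1 of 36. All 3 pairs passed for TCR with PI3Kdi, TCR with MEKi, PI3Kdi with MEKi and unstimulated with MEKi, so the numbers were taken as pairing these comparisons, and a fit with replicate number as a block was an alternative. Others were adding 1 or 0.01 in place of 0.1, dropping genes under a mean of 1 FPKM, the TPM scale, quantile normalisation, no trend, the compared groups alone, adjusted p alone, limma treat and leaving out each sample.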

Additional observations from a re-analysis of the deposited data

How the results depend on the processing

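Counts of called genes are given for TCR against unstimulated, PI3Kdi against TCR, MEKi against TCR, MEKi against PI3Kdi, PI3Kdi against unstimulated and MEKi against unstimulated, in that order. They were 2202, 207, 385, 341, 1608 and 1478, with adjusted p alone 7559, 2818, 4090, 3185, 6887 and 6571, with a pseudocount of 1 1405, 90, 201, 150, 979 and 873, and with limma treat 1174, 27, 106, 64, 803 and 739. With adjusted p alone, 3, 5, 4, 5 and 5 of the 5 members passed in the last 5 comparisons, against 0, 3, 2, 3 and 3. The other settings moved none of these counts by over 1.5 times. Among the gene lists, the TPM scale moved the NFAT genes called lower with TCR from 1 to 6 and the NuRD genes from 1 to 4, a pseudocount of 1 moved the latter to 0, and MEKi against TCR gave 2 immediate-early genes called higher in place of 1 with a pseudocount of 0.01, with quantile normalisation and on the TPM scale. EGR targets called higher there went from 0 to 1 with quantile normalisation and to 2 on the TPM scale. Over all genes, those called lower with TCR numbered 1224 as deposited, 2276 on the TPM scale and 718 with a pseudocount of 1. With MEKi against TCR, 108 of all genes were called higher as deposited and 323 on the TPM scale. With a pseudocount of 0.01 and with quantile normalisation these were 148 and 107. The share of called genes that were higher was 44.4%, 26.6%, 28.1%, 44.9%, 49.1% and 51.8%, and on the TPM scale 22.1%, 52.7%, 61.5%, 54.3%, 32.9% and 39.7%. With treat it was 5.7% for MEKi and 11.1% for PI3Kdi against TCR, and with a pseudocount of 1 14.4% for MEKi. Nab1 in PI3Kdi against TCR turned from -0.15 to 0.03 on the TPM scale. The replicate block kept the members' calls at 2-fold, but the ratios of Egr2 to Egr3 (MEKi minus TCR -1.21, exact p = 0.0556) and Nab2 to Nab1 (-1.01, exact p = 0.0833) no longer passed. Leaving out any 1 sample changed no call of a member at 2-fold and no ratio call. The causes of these changes were not tested. Read totals are unknown, so counting error could not be set beside any of these values.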

Other observations

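The genes whose levels ran closest to each member over the 12 samples, by Pearson r of log2(FPKM + 0.1) among 10232 genes, differed between Egr1 and the other EGR genes. These values are descriptions with no test, since the samples fall into 4 groups and share their scaling. Egr1 was followed by Maff (0.977), Pdp1 (0.975), Lhfpl1 (0.971), Plcg1 (0.961) and Tmc8 (0.959), whose levels were all lowest with MEKi. Lhfpl1, for example, had a mean of 6.8 FPKM in unstimulated CTL, 8.17 with TCR, 5.93 with PI3Kdi and 0.883 with MEKi. Egr2 was followed by Pou2f2, Map2k3 and Pttg1ip (each 0.998), Siglec5 (0.996) and Slc29a1 (0.995). Pou2f2, which encodes the octamer factor OCT2, went from 1.96 to 36.2 FPKM with TCR and was at 25.5 with PI3Kdi and 13.5 with MEKi. Egr3 was followed by Atp10a and Sept11 (each 0.996) and by Zswim4, Nr4a2 and Dot1l (each 0.992). Nab2 was closest to Slc29a1 and Prkch (each 0.991), Ccl5 (0.989), and Camk2n1 and Cd2 (each 0.988).

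Nab1 was closest to Fam169b (0.984), Rfx5 (0.956), Coro2a (0.951), Slc39a6 (0.941) and Csrp1 (0.926), which were all highest with MEKi. Among the members, Egr2 and Egr3 (0.983), Egr2 and Nab2 (0.983) and Egr3 and Nab2 (0.955) ran together, whereas Egr1 and Egr2 gave 0.246 and Egr1 and Nab1 gave -0.832.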
